A study of Mus musculus with 71 samples.

Results

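The 10 genes described here build, load or regulate major histocompatibility complex (MHC) class I molecules, and they were taken by name from the 24475 gene identifiers of the bulk RNA-seq tables. They are B2m, H2-K1, H2-D1, H2-T3, Tap1, Tap2, Tapbp, Psmb8, Psmb9 and Nlrc5, and all 10 were present in the 3 bulk tables and in the single-cell tables. The study compared mice lacking butyrophilin-like 2 (Btnl2), a cell-surface molecule of the intestinal epithelium, with wild-type (WT) mice on the C57BL/6 background. Btnl2-KO mice carried a LacZ cassette knocked in at Btnl2 and were housed with WT mice, in part littermates. The allele was a germline one, so every cell type carried it.

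Expression was measured in sorted γδ intraepithelial lymphocytes (IELs), in intestinal epithelial cells (IECs), in whole small intestine and colon, and in single γδ IELs. The γδ IELs were T cells gated as CD45+, TCRβ- and TCRγδ+. Their bulk libraries came from mice labelled 10 weeks old, each library a pool of 2 mice, with 4 WT and 3 Btnl2-KO libraries of duodenum, 4 and 4 of jejunum, and 4 and 3 of ileum. IEC libraries came from mice labelled 7 weeks old, with 3 WT and 2 Btnl2-KO libraries of duodenum, 3 and 3 of jejunum, and 2 and 3 of ileum. Whole tissue was represented by 7 WT and 7 Btnl2-KO libraries of small intestine and by 6 and 7 of colon, with the age given only as young. Single γδ IELs, from mice 8 to 10 weeks old, were sequenced as 1 pooled library for each segment and genotype, so genotypes had no replicate there. By the paper, a part of each sorted γδ IEL sample went to bulk sequencing and the rest into these pools. Bulk and single-cell γδ IELs are therefore not taken as independent sets of mice, though their labels differ in age.

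MHC class I molecules display short peptides from inside the cell to CD8 T cells and to natural killer receptors. Each consists of a heavy chain (H2-K1, H2-D1) paired with the light chain β2-microglobulin (B2m). The immunoproteasome subunits Psmb8 and Psmb9 help cut peptides, the transporter Tap1/Tap2 carries them into the endoplasmic reticulum, tapasin (Tapbp) helps load them, and Nlrc5 switches on transcription of the set. H2-T3 encodes the thymus leukemia (TL) antigen, a nonclassical heavy chain known on small intestinal epithelium that does not display peptide in the classical way and binds the CD8αα homodimer carried by most IELs. Interferon is a well known inducer of the pathway.

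Depth was 13444958 to 30029485 assigned reads per γδ IEL library, 15397757 to 38258472 per IEC library and 13619309 to 21708721 per tissue library. Levels below are CPM, each count as a share of its library after scaling between libraries. Btnl2 itself lay between 23.9 and 103 CPM in WT small intestine and between 0.675 and 2.44 CPM in Btnl2-KO small intestine. Several libraries went against their labels or stood apart from their group. Among IECs, the library labelled jejunum Btnl2-KO 2 held 19.5 CPM of Btnl2 and the one labelled duodenum Btnl2-KO 1 held 5.45 CPM, against at most 0.595 CPM in the other Btnl2-KO IEC libraries. These same libraries held 484 and 220 CPM of the ileal bile acid-binding gene Fabp6, while the one labelled ileum Btnl2-KO 1 held 0.231 CPM of Fabp6 and 153 CPM of the proximal transcription factor Gata4. In whole tissue the labels name no segment of small intestine. There small intestine Btnl2-KO 1, WT 5 and WT 7 held Gata4 at 95.6, 82.7 and 15.1 CPM beside Fabp6. Small intestine WT 2 and WT 3 held 846 and 1624 CPM of the colonic gene Car1. Calls below were repeated without these libraries. The γδ IEL libraries carried a γδ IEL marker sum of at least 33913 CPM but also pan-epithelial markers, at 605 to 9033 CPM, against 8422 CPM in the lowest IEC library. The IEC libraries carried γδ IEL markers at 23.6 to 389 CPM.

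The promoter stretches shown are those upstream of B2m, the most abundant member per length, of H2-K1, which stood level with B2m in colon, and of H2-T3, the member with the widest range between tissues. They were read from the RefSeq promoter table on build GRCm38, 5′ to 3′ on the gene's strand, and stop before the first annotated exon. Capitals mark matches to the interferon regulatory factor (IRF) motif, searched as GAAA followed after any 2 bases by a further GAAA, or to CCAAT, of the kind bound by NF-Y, searched on both strands.
B2m, chr2:122147437-122147685, plus strand: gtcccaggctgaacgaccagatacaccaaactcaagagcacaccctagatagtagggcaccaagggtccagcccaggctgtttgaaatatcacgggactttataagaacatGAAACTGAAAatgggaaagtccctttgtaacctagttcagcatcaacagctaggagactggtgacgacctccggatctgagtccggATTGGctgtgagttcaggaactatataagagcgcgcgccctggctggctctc
H2-K1, chr17:34000348-34000597, minus strand: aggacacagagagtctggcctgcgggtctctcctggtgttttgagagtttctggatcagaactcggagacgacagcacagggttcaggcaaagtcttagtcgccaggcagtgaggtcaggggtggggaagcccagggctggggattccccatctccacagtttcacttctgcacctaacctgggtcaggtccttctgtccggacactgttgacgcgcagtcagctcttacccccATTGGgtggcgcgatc
H2-T3, chr17:36190288-36190401, minus strand: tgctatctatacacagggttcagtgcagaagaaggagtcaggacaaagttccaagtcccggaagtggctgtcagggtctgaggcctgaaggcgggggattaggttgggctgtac

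Promoter windows were present for 8 of the 10 genes, all but Tap2 and Nlrc5. The search covered the whole 250 bases before the start of each, also where the stretch printed above is shorter, as the 114 bases of H2-T3 are. CCAAT was found in 6 of the 8 (B2m, H2-K1, H2-D1, Tap1, Tapbp and Psmb9), against 33.8% of 32851 windows of that length. The exact letters searched for the IRF motif were found in B2m alone, against 2.98% of windows. Sites with other letters were not searched for, so whether the other windows, that of H2-K1 included, hold an IRF site was not tested. Neither motif as searched was in the 250 bases of H2-T3. Tap1 and Psmb9 start 226 bases apart on opposite strands, so the CCAAT found for both is the same stretch. B2m is on chromosome 2 and Nlrc5 on chromosome 8. The other members lie with Btnl2 on chromosome 17 (GRCm38), from Tap2 at 139 kb from Btnl2 to H2-T3 at 1816 kb.

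Levels were first ordered per kilobase of each gene's principal transcript in WT libraries. In γδ IELs, B2m came first at 4332 CPM per kb (SD 439, n = 12). H2-D1 (2795) and H2-K1 (2639) followed and did not separate, H2-D1 being above H2-K1 in 9 of 12 libraries. Psmb8 (538) stood above Tapbp (225) and Psmb9 (193), which did not separate, then came Tap2 (91.9) and Tap1 (64.8), and H2-T3 (12.7) and Nlrc5 (8.81) overlapped at the bottom.

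IECs kept B2m first, at 502 CPM per kb over 8 libraries, ahead of H2-K1 (213) and H2-D1 (142), but H2-T3 stood much higher in their order. At 47.4 CPM per kb, H2-T3 overlapped with Psmb8 (55.8) and Tapbp (45.0), above Tap1 (31.3), Psmb9 (26.2) and Tap2 (8.79). Nlrc5 was last at 0.454 CPM per kb.

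Whole small intestine resembled IECs in this order, with B2m at 1198 CPM per kb, H2-K1 at 560, H2-D1 at 352 and H2-T3 at 48.2 over 7 libraries. Colon did not. There B2m (341) and H2-K1 (349) did not separate over 6 libraries, and H2-T3 (2.06) fell to the bottom beside Nlrc5 (0.725). The γδ IEL, IEC and tissue tables were counted as separate experiments, so levels between them are set side by side and not tested.

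**Figure D1:**
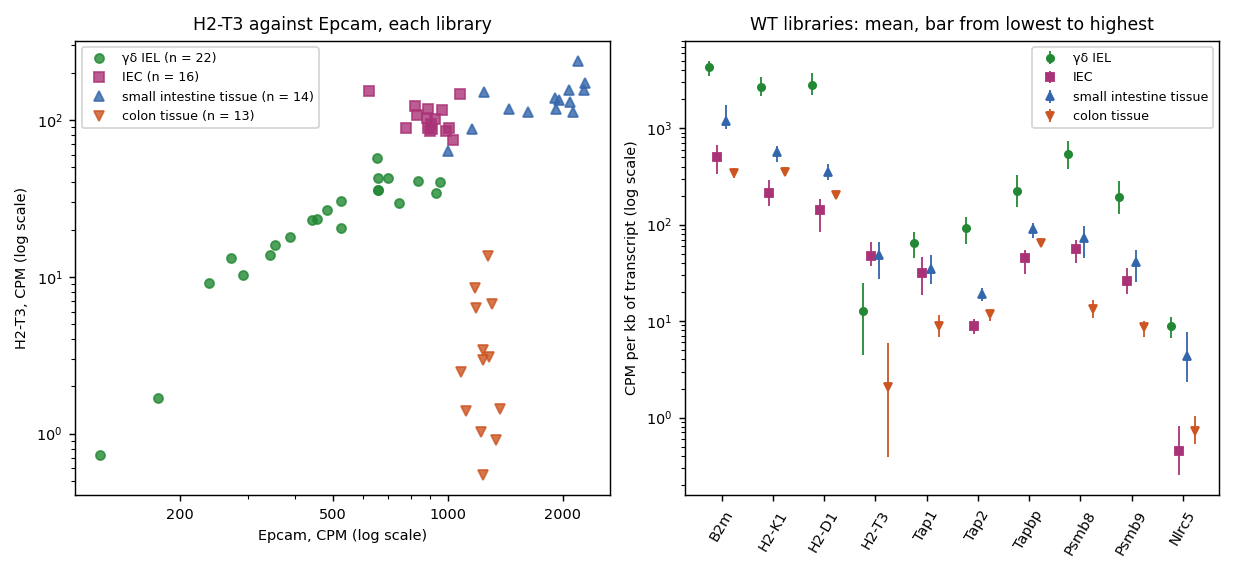
Left, H2-T3 level against the level of the epithelial gene Epcam (both in CPM on log axes), 1 point per bulk library, for 22 γδ IEL, 16 IEC, 14 small intestine and 13 colon libraries. Right, CPM per kilobase of each of the 10 genes in WT libraries on a log axis, with the mean as a point and the lowest to highest library as a bar. H2-T3 rises with Epcam among γδ IEL libraries, while colon libraries hold Epcam with little H2-T3.

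The largest differences among the 10 genes lay between whole small intestine and colon. In WT mice 9 of 10 passed the threshold as lower in colon, where 15.6% of the 15162 genes tested did so (edgeR quasi-likelihood test, adjusted p below 0.05 and more than 1.5-fold). In Btnl2-KO mice 10 of 10 did, against 15.7% of genes. Levels of all 10 did not overlap between the WT groups, and in Btnl2-KO mice those of 9 did not. The share of all genes without overlap was not counted, in this or any later comparison, so overlap only describes the members. In whole tissue, fewer cells of a type and less RNA per cell cannot be told apart.

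The light chain B2m ran from 839 to 1497 CPM (median 969) in WT small intestine and from 262 to 330 CPM (median 292) in WT colon. Every colon library was thus below every small intestine library, with a log2 difference of -1.83 ± 0.142 (SE, adjusted p = 1.3e-07), or 3.56-fold. In Btnl2-KO mice B2m ran from 808 to 1495 CPM (median 1294) in small intestine and from 233 to 342 CPM (median 270) in colon, a log2 difference of -2.18 ± 0.133 (edgeR adjusted p = 1.64e-09). B2m was also the normalizing transcript of PCR measurements in the study.

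The classical heavy chains had smaller log2 differences than the light chain. H2-K1 lay between 716 and 1069 CPM (median 927) in WT small intestine and between 515 and 634 CPM (median 559) in WT colon, a log2 difference of -0.70 ± 0.103 (edgeR adjusted p = 6.89e-05). H2-D1 lay between 615 and 893 CPM (median 729) and between 400 and 449 CPM (median 425), a difference of -0.82 ± 0.0960 (edgeR adjusted p = 7.79e-06). In Btnl2-KO mice the log2 differences were -1.04 for H2-K1 and -1.09 for H2-D1, both past the threshold. In every tissue and IEC library the estimated counts of H2-K1, H2-D1 and H2-T3 were not whole, so reads shared with similar genes had been divided among them.

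TL antigen had the widest gap. H2-T3 ran from 63.6 to 151 CPM (median 117) in WT small intestine and from 0.912 to 13.6 CPM (median 3.19) in WT colon. That was a log2 difference of -4.58 ± 0.514 (edgeR adjusted p = 5.27e-06), or 23.9-fold, with no overlap. In Btnl2-KO mice it ran from 112 to 236 CPM (median 155) and from 0.547 to 8.51 CPM (median 2.49), a difference of -5.50 ± 0.463 (edgeR adjusted p = 6.89e-08), or 45.3-fold. Epithelial markers moved too. The summed pan-epithelial markers were 11230 to 13095 CPM (median 12168) in WT colon and 10017 to 19344 CPM (median 15043) in WT small intestine, with 3 of 12 called lower and 1 higher in WT colon. Per 1000 CPM of those markers, H2-T3 had a median of 0.233 CPM in colon (0.0421 to 1.05) and of 7.63 CPM in small intestine (5.83 to 12.4). Small intestinal enterocyte genes were nearly absent from colon, with a summed level of 39.3 to 254 CPM over its 13 libraries against 2111 to 29384 CPM over the 14 of small intestine, and their part in the H2-T3 difference was not tested.

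The genes of peptide supply ranged widely in the size of their differences. Tap1 was 71.3 to 143 CPM (median 102) in WT small intestine and 20.3 to 34.3 CPM (median 26.1) in WT colon, 3.90-fold lower at a log2 difference of -1.96 ± 0.188 (edgeR adjusted p = 1.06e-06). Tap2, its partner, moved less, from a median of 66.7 CPM to one of 42.3 CPM (log2 difference -0.72, edgeR adjusted p = 1.8e-05). Reads were divided between Tap1 and Tap2, and with the pair added together the difference was -1.33 ± 0.13 (edgeR adjusted p = 1.25e-06). Tapbp changed least, from 211 to 306 CPM (median 259) to 170 to 197 CPM (median 187), a difference of -0.50 ± 0.0872 that at 1.41-fold missed the fold threshold in WT mice (edgeR adjusted p = 0.000317). In Btnl2-KO mice Tapbp passed it at -0.74 ± 0.105 (edgeR adjusted p = 2.19e-05).

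The immunoproteasome subunits and Nlrc5 came next to H2-T3 in size. Psmb8 had medians of 139 and 21.8 CPM in WT small intestine and colon, a log2 difference of -2.46 ± 0.197 (edgeR adjusted p = 1.89e-07), or 5.50-fold. Psmb9 had medians of 65.2 and 12.1 CPM, a difference of -2.26 ± 0.197 (edgeR adjusted p = 3.98e-07), or 4.80-fold. Nlrc5 ran from 17.8 to 58.3 CPM (median 28.3) in small intestine and to at most 7.77 CPM (median 5.19) in colon, 6.04-fold lower (edgeR adjusted p = 8.27e-06). In Btnl2-KO mice the Nlrc5 difference was -3.46 ± 0.376 on the log2 scale (edgeR adjusted p = 1.27e-06).

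**Figure D2:**
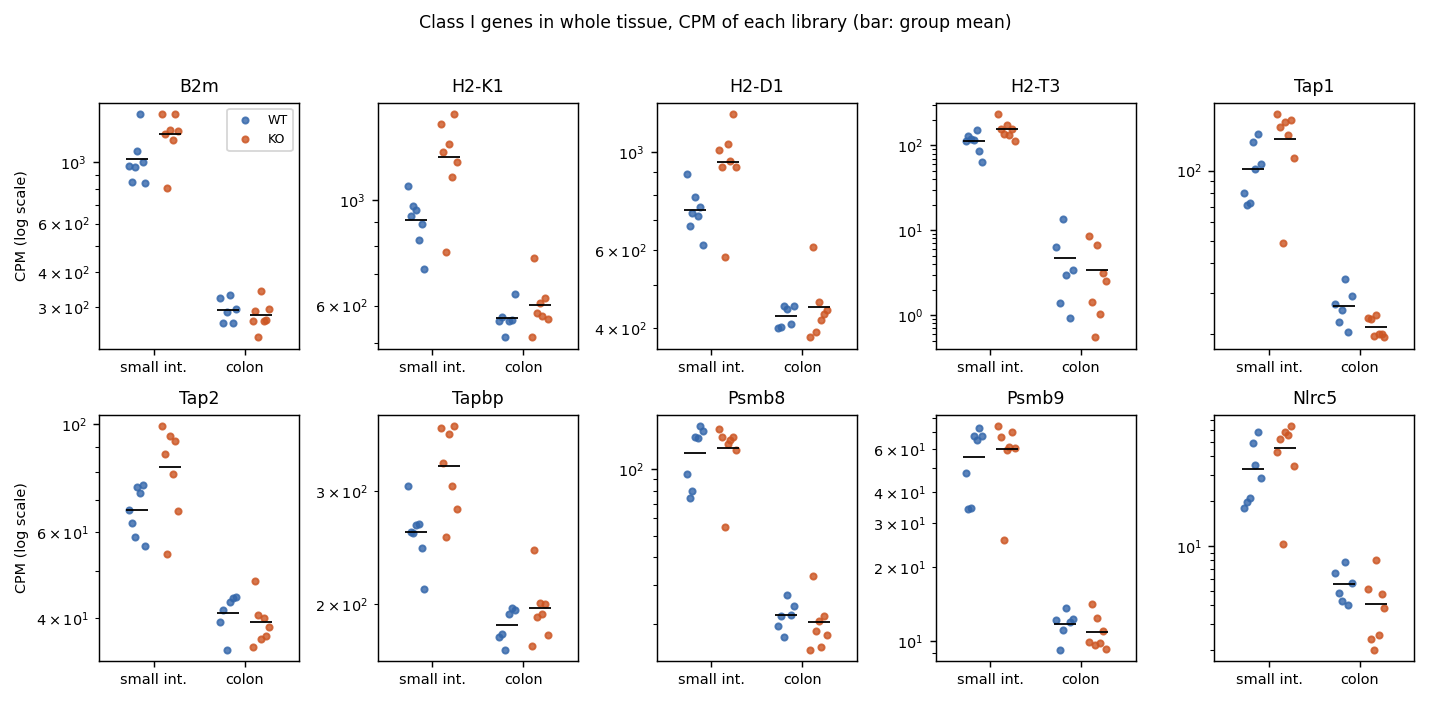
Level of each of the 10 genes in whole tissue (CPM, log axis), 1 point per library, in WT and Btnl2-KO small intestine (7 and 7 libraries) and colon (6 and 7), with a bar at the mean. WT colon libraries lie below WT small intestine libraries for every gene, H2-D1 of Btnl2-KO colon reaches into its small intestine range (609 against 580 CPM), H2-T3 has the widest gap, and the genotypes overlap within each tissue.

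The wider pathway moved unevenly between the tissues. Of 10 further genes of loading and peptide supply, 7 were lower in WT colon and 7 in Btnl2-KO colon, among them the immunoproteasome subunit Psmb10 (log2 -1.27 in WT), the proteasome activators Psme1 (-1.25) and Psme2 (-1.19), and the tapasin-related Tapbpl (-1.03). Of 14 constitutive proteasome subunits, 2 were lower in WT colon and 0 in Btnl2-KO colon by the same edgeR test, with medians of -0.39 and -0.22. Other class I heavy chains went both ways, 9 lower and 2 higher of 17 tested in WT colon, with H2-Q4 at -0.93, H2-Q2 at -1.70, H2-T23 at -0.84 and the class I-like Azgp1 at 3.11. Of 19 regulators of interferon and class I transcription, 7 were lower and 1 higher in WT colon, including Irf8 (-1.23) and Ciita (-2.45), the class II transactivator.

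The CD8α chain that binds TL antigen was itself lower in WT colon, Cd8a at 0.896 against 12.5 CPM (log2 -3.83). Cell type and interferon markers moved with these members. Lower in WT colon were 9 of 9 γδ IEL markers, 8 of 8 enterocyte genes, 5 of 6 myeloid markers and 7 of 8 interferon-induced genes. The γδ IEL sum was 147 to 282 CPM in WT small intestine and 27.1 to 61.0 CPM in WT colon. The interferon-induced sum was 102 to 290 and 60.3 to 126 CPM. The part of each in the class I differences was not tested. Without small intestine WT 5 and 7, B2m was at -1.76 and H2-T3 at -4.60, and without WT 2 and 3 they were at -1.90 and -4.50, all past the threshold.

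Loss of Btnl2 changed none of the 10 genes past the threshold in whole small intestine or colon. In small intestine 0 of 10 were called by edgeR, where 0.0202% of 14866 genes were, and 0 by DESeq2. All 10 log2 differences were positive, with a median of 0.34 against -0.03 over all genes, and 5 of the 10 had an unadjusted p below 0.05. The share of all genes at that unadjusted p was not counted, in this or any later comparison. Small p-values were common over all genes here. That of Tap1 and Tap2 added together, 0.061 by edgeR, became 0.237 after adjustment. The 5 are therefore not read as a trait of the members. The lowest adjusted p was 0.129.

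H2-K1 ran from 777 to 1515 CPM (median 1260) in Btnl2-KO small intestine against 716 to 1069 CPM (median 927) in WT. Its log2 difference was 0.43 ± 0.141 (edgeR adjusted p = 0.130). Tapbp ran from 255 to 379 CPM (median 332) against 211 to 306 CPM (median 259), at 0.33 ± 0.109 (edgeR adjusted p = 0.129). The groups overlapped for both, and for the other 8.

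H2-D1 ran from 580 to 1220 CPM (median 953) in Btnl2-KO small intestine, at 0.35 ± 0.139 above WT (edgeR adjusted p = 0.166). H2-T3 differed by 0.49 ± 0.186 (edgeR adjusted p = 0.157) and Tap2 by 0.29 ± 0.123 (edgeR adjusted p = 0.186). Tap1, with 49.0 to 175 CPM (median 154) against a WT median of 102 CPM, and Nlrc5, with 10.2 to 63.5 CPM (median 52.3) against 28.3 CPM, spread too widely to separate, at edgeR adjusted p = 0.282 and 0.414. The immunoproteasome genes were closest to no difference, Psmb8 at 0.07 and Psmb9 at 0.10.

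Markers of several cell types also differed, not all in the same direction. The enterocyte sum was 11262 to 29384 CPM (median 16624) in Btnl2-KO small intestine and 2111 to 12980 CPM (median 11827) in WT, and the interferon-induced sum 234 to 530 CPM (median 339) and 102 to 290 CPM (median 233), though no gene of either list was called. The median log2 difference was 1.22 over 3 small intestine identity genes (Sis, Lct and Fabp2) and -1.11 over the 4 B cell markers tested, also with no gene called. Sis and Fabp2 are enterocyte genes of the sum above as well. The myeloid sum had medians of 223 CPM in Btnl2-KO and 281 CPM in WT small intestine. The part of any of these was not tested. Leaving out each library in turn gave 0 members in all 14 refits, with lowest adjusted p from 0.0722 to 0.211. Without the Gata4-rich libraries 0 were called. Without small intestine WT 2 and 3 also 0 were called, Psmb8 and Psmb9 turned to -0.11 and -0.10, and the calls over all genes went from 3 to 324.

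In colon 0 of 10 members were called by edgeR, where 0.0269% of 14871 genes were, and 0 by DESeq2. Their median log2 difference was -0.09 with 3 positive. Tap1 alone had an unadjusted p below 0.05, with a median of 19.9 CPM against 26.1 CPM in WT and overlapping groups (log2 -0.31 ± 0.112, edgeR adjusted p = 0.972). The tissue difference was also compared between genotypes. The interaction was negative for all 10, with a median of -0.34, but 0 were called against 0.0193% of 15540 genes, 2 reached an unadjusted p below 0.05, and the count by DESeq2 was 0.

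Among bulk γδ IELs, loss of Btnl2 changed none of the 10 genes past the threshold in any segment. By edgeR 0 of 10 were called in duodenum, where 0.00789% of 12680 genes were, 0 of 10 in jejunum against 0.00794% of 12594, and 0 of 10 in ileum against 0% of 12604. In ileum Btnl2 itself was thus not called, at means of 2.98 CPM in WT and 0.0412 CPM in Btnl2-KO. The lack of calls there therefore says little about the members. The paper, with DESeq2 at these thresholds, reported many genes lower in ileal Btnl2-KO γδ IELs. Unadjusted p below 0.05 was reached by 1, 1 and 0 members, and DESeq2 called 0 in each. The median log2 differences over the members were -0.15, 0.08 and 0.17.

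The 2 members with unadjusted p below 0.05 were not the same. Psmb9 in duodenum was 237, 261 and 222 CPM in the Btnl2-KO libraries against 382, 294, 259 and 358 CPM in WT, at -0.43 ± 0.161 (edgeR adjusted p = 0.997). Nlrc5 in jejunum was 40.7, 66.6, 52.9 and 51.6 CPM against 77.8, 60.3, 83.2 and 72.2 CPM, at -0.43 ± 0.159 (edgeR adjusted p = 0.583). Both pairs of groups overlapped. The one member whose genotypes did not overlap was H2-D1 in duodenum, at 5651, 5878 and 5289 CPM in Btnl2-KO against 6402, 5984, 6183 and 6158 CPM in WT, a log2 difference of -0.14 ± 0.157 (edgeR adjusted p = 0.997).

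B2m showed no order by genotype. It was 3822, 4898 and 3552 CPM in duodenal Btnl2-KO libraries against 4069, 4230, 4128 and 3921 CPM in WT. In jejunum it was 4844, 3818, 4942 and 3392 against 3883, 3328, 3792 and 3310 CPM, and in ileum 3920, 4345 and 3012 against 3885, 3556, 3644 and 2966 CPM. H2-K1 likewise differed by -0.21, 0.36 and 0.24 on the log2 scale in duodenum, jejunum and ileum, none called.

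H2-T3 was low and uneven in γδ IEL libraries. In ileum it was 15.9, 1.69 and 17.9 CPM in Btnl2-KO against 13.8, 40.3, 34.0 and 29.4 CPM in WT, at -1.30 ± 0.621 (edgeR adjusted p = 0.576). In jejunum Btnl2-KO it ranged from 0.727 to 35.9 CPM among replicates. Epcam, a gene of epithelial cells that the gate should remove, ranged alongside it, at 353, 175 and 386 CPM in ileal Btnl2-KO and 344, 957, 929 and 746 CPM in ileal WT. Over all 22 libraries the log2 levels of H2-T3 and Epcam had a Pearson r of 0.93 and a Spearman rho of 0.88, and r was 0.91 over the 20 left without jejunal and ileal Btnl2-KO 2, which were lowest in both genes. The libraries share segments and sorting, so this is a description. Elsewhere the same r was -0.39 over 16 IEC, 0.73 over 14 small intestine and -0.03 over 13 colon libraries. Per 1000 CPM of pan-epithelial markers, H2-T3 had a median of 6.18 CPM in γδ IELs (1.20 to 10.7) and of 8.90 CPM in IECs (6.23 to 13.1).

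Segments were then compared among WT γδ IELs, where members were called no more often than genes in general. Jejunal libraries stood apart from both other segments over all genes, since 22.5% of 12899 genes were called between jejunum and duodenum and 21.9% between ileum and jejunum, but 2.11% between ileum and duodenum. Among the members, 1 of 10 was called in the first comparison, 0 of 10 in the second and 0 of 10 in the last. By DESeq2 these counts were 2 (H2-T3 and Psmb9), 0 and 0. Members with an unadjusted p below 0.05 by edgeR numbered 5, 5 and 0, without a count over all genes to set beside them. Small p-values were common over all genes in the first and second comparison. There Tap1 and Tap2 added together had an edgeR p of 0.0946 and 0.0249, which became 0.181 and 0.0675 after adjustment. The counts of 5 are therefore not read as a trait of the members.

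The gene called was Psmb9, at 227, 194, 204 and 175 CPM in jejunum and 382, 294, 259 and 358 CPM in duodenum. The groups did not overlap, and Psmb9 was 1.63-fold lower in jejunum (log2 -0.70 ± 0.153, edgeR adjusted p = 0.00491). Psmb8, its partner in the immunoproteasome, was 776, 677, 731 and 611 CPM against 1119, 886, 803 and 1202 CPM, at -0.53 ± 0.160 with an adjusted p of 0.0219 by edgeR but 1.45-fold, under the fold threshold. In Btnl2-KO libraries the same segments overlapped and the means went the other way. Psmb9 had means of 259 CPM in jejunum and 240 CPM in duodenum, and Psmb8 of 852 and 807 CPM. Jejunum was not tested against duodenum in Btnl2-KO mice.

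Tapbp went the other way. It was 944, 765, 863 and 791 CPM in jejunum, 438, 544, 708 and 538 CPM in duodenum, and 684, 473, 444 and 650 CPM in ileum. Every jejunal WT library was above every other WT library, but the difference from duodenum, 0.58 ± 0.178 (edgeR adjusted p = 0.0234), and from ileum, -0.56 ± 0.178 for ileum against jejunum (edgeR adjusted p = 0.0281), stayed under the fold threshold. In Btnl2-KO libraries the Tapbp means were 753 CPM in jejunum, 581 CPM in duodenum and 760 CPM in ileum. Of the constitutive proteasome subunits, which are no members, 6 of 14 were lower in jejunum than in duodenum (Psmb5 at -0.81, Psmb4 at -0.81, Psmb6 at -0.89 and Psmb3 at -0.69) and 8 of 14 were higher in ileum than in jejunum. Psmb10, the remaining immunoproteasome catalytic subunit, was lower in jejunum than in duodenum at -0.83 (edgeR adjusted p = 0.00313).

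Between ileal and duodenal Btnl2-KO γδ IELs 0 of 10 members were called by edgeR, 0 at an unadjusted p below 0.05 and 0 by DESeq2, against 0.00775% of 12901 genes. H2-T3 did not overlap there, at 15.9, 1.69 and 17.9 CPM in ileum against 42.8, 20.4 and 40.9 CPM in duodenum (log2 -1.55 ± 1.08, edgeR adjusted p = 0.846). The interaction of genotype with that segment difference gave 0 of 10 by edgeR against 0% of 13360 genes, 0 at an unadjusted p below 0.05 and 0 by DESeq2, with a median of 0.37 over the members.

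**Figure D3:**
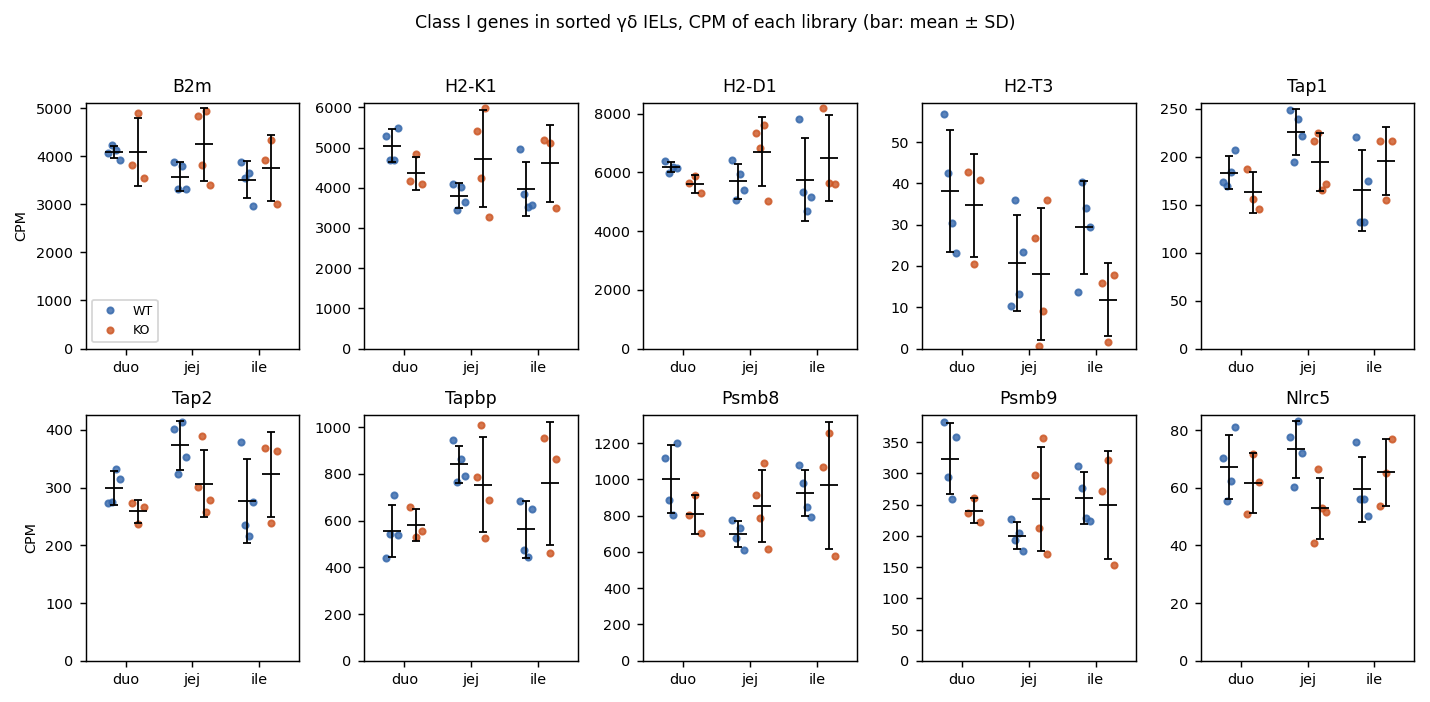
Level of each of the 10 genes in bulk γδ IELs (CPM, linear axes), 1 point per library, by segment and genotype, with mean ± SD over 3 or 4 libraries. Psmb9 is lower and Tapbp higher in WT jejunum than in WT duodenum, and the genotypes overlap in most panels.

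In IECs, loss of Btnl2 changed none of the 10 genes past the threshold. By edgeR 0 of 10 were called in duodenum against 0% of 12584 genes, 0 of 10 in jejunum against 0% of 12543 and 0 of 10 in ileum against 0.00774% of 12925. In duodenum and jejunum Btnl2 itself was thus not called, so the lack of calls there says little about the members. Its means were 51.3 and 41.9 CPM in WT and 2.89 and 6.89 CPM in Btnl2-KO. In no segment did a member reach an unadjusted p of 0.05, and the count by DESeq2 was also 0. With 2 or 3 libraries a group, and with 3 Btnl2-KO libraries that went against their labels, the median differences of 0.05, -0.29 and -0.18 are given as values. Leaving out each of those 3 libraries also gave 0 members. Tap1 in ileum, at 62.2, 96.7 and 78.4 CPM in Btnl2-KO against 101 and 104 CPM in WT, did not overlap between genotypes and was at -0.37 ± 0.196 (edgeR adjusted p = 0.900). Tapbp in jejunum did not overlap either, with 110 to 117 CPM in Btnl2-KO against 128 to 150 CPM in WT, at -0.26 ± 0.142 (edgeR adjusted p = 0.583).

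H2-T3 was present in every IEC library. Duodenal WT libraries held 102, 152 and 107 CPM and Btnl2-KO libraries 88.8 and 116 CPM. Jejunal libraries held 87.6, 118 and 103 CPM in WT and 94.2, 146 and 88.3 CPM in Btnl2-KO, and ileal ones 122 and 85.3 CPM in WT and 84.7, 88.3 and 74.3 CPM in Btnl2-KO. The groups overlapped in each segment, and TL antigen RNA showed no call between segments. B2m was as level, at 496, 503 and 312 CPM in WT duodenum, 287, 491 and 571 CPM in WT jejunum, and 336 and 457 CPM in WT ileum.

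Between WT segments of IECs, 1 of 10 members was called between ileum and duodenum, where 6.59% of 13046 genes were. It was Nlrc5, at 3.87 and 6.15 CPM in ileum against 1.94, 2.10 and 2.36 CPM in duodenum, 2.38-fold higher (log2 1.25 ± 0.269, edgeR adjusted p = 0.0250). The call was lost, with 0 members, without ileum WT 1, ileum WT 2 or duodenum WT 1. Myeloid markers summed to 91.9 CPM or more in the ileal WT libraries and to 27.3 CPM in the lowest duodenal one, and their part was not tested. Between jejunum and duodenum 0 of 10 were called against 0.791% of 12767 genes, and between ileum and jejunum 0 of 10 against 0.644% of 13046, with 1 and 0 at an unadjusted p below 0.05 by edgeR and 0 by DESeq2.

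**Figure D4:**
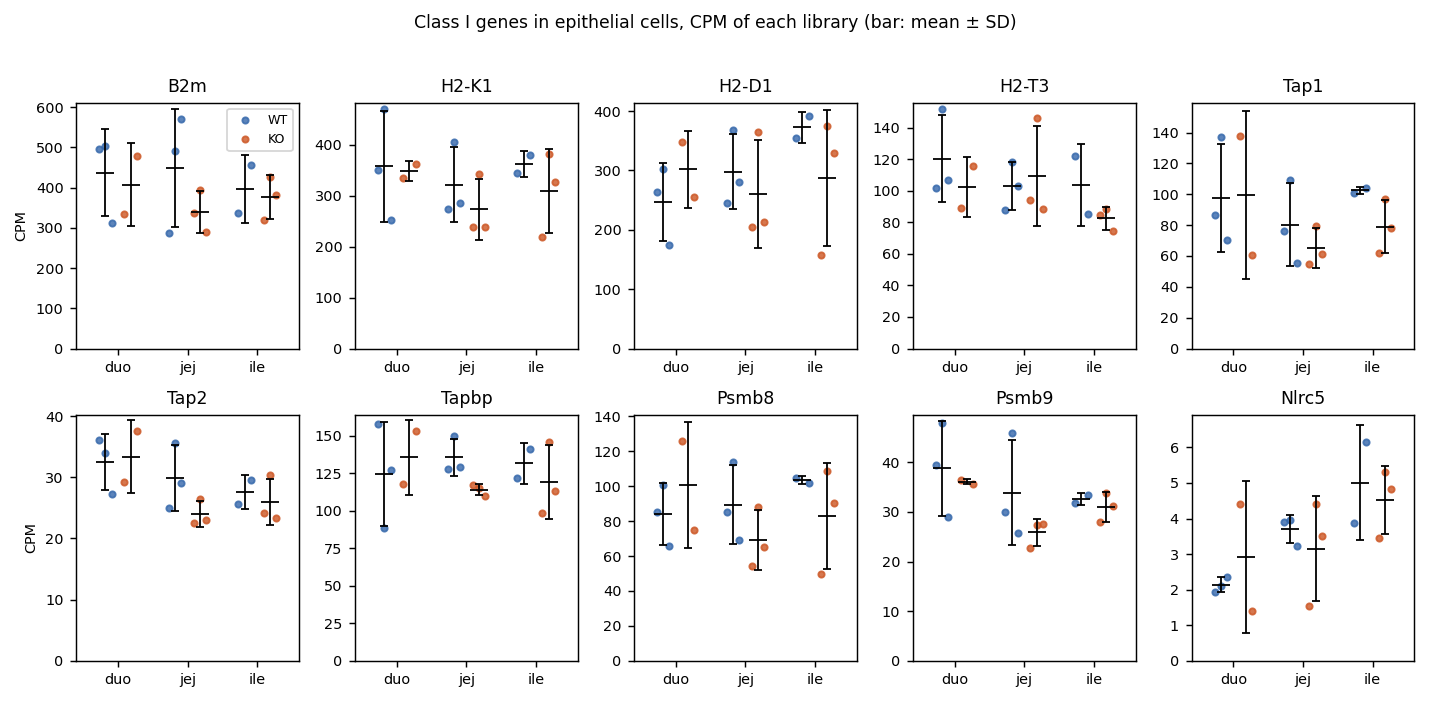
Level of each of the 10 genes in IECs (CPM, linear axes), 1 point per library, by segment and genotype, with mean ± SD over 2 or 3 libraries. Nlrc5 is higher in WT ileum than in WT duodenum, and H2-T3 lies between 74.3 and 152 CPM throughout.

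Genes were ranked by how closely their log2 levels followed H2-T3 or B2m over all libraries of a table. In γδ IELs the nearest to H2-T3 were Fcgrt, Ush1c, Fbp2, Tmem98 and Cideb (Pearson r 0.98 for the first, n = 22). In IECs they were Aqp3 (0.93, n = 16), Tubal3, Soat2, Tbcel and Plin3, and in tissue Malrd1, Prlr, Otc, Gpat3 and Ugt2b36 (0.99 for Prlr, n = 27). B2m was followed in tissue most closely by Gzma, H2-DMa, H2-Ab1, Cd160 and H2-DMb1 (0.99 for the first). In IECs its nearest were Mov10 (0.92), Gapdh, Egln2, Plekho2 and Cisd3, and in γδ IELs Tmem179b (0.89), 4931440P22Rik, Rdm1, Gm10389 and Mmgt2. Libraries share tissue and genotype, so these values are descriptions.

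With group means removed, members moved together to different degrees in the 3 tables. Psmb8 and Psmb9 had a Pearson r of 0.97 over γδ IEL, 0.71 over IEC and 0.93 over tissue libraries. H2-K1 and H2-D1 had 0.81, 0.90 and 0.90, and Tap1 and Tap2 had 0.91, 0.25 and 0.72. Reads were divided between Tap1 and Tap2 in all 16 IEC and 27 tissue libraries, where their counts were not whole but their sum was. In the 22 γδ IEL libraries both counts were whole. The part of this in their r was not tested. Tap1 and Psmb9, which start head to head, had -0.04, 0.75 and 0.90. B2m and H2-T3 had -0.33, 0.41 and 0.39.

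Single γδ IELs gave 3589 to 4647 cells per library after filtering, with median depths of 4877 to 5468 unique molecular identifiers (UMIs). A UMI of Cd3e or Cd3g was found in 99.6% to 99.9% of cells, so the cells carried T cell RNA, and a UMI of an epithelial gene in 55.0% to 64.7%. Pairs of libraries shared 18 to 31 barcodes. There was 1 library per segment and genotype, so values have no replicate check, and intervals (exact Poisson, 95%) cover counting error only.

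The heavy chains led at the level of raw UMIs. H2-K1 was 2363 CPM in Btnl2-KO and 2529 CPM in WT duodenum, 2083 and 2211 CPM in jejunum, and 2143 and 2226 CPM in ileum. H2-D1 was 1975 and 2107, 1773 and 1940, and 1844 and 1957 CPM. B2m was 1766 and 1754, 1696 and 1681, and 1664 and 1630 CPM in the same order and was close to level between genotypes.

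Among the machinery genes, Tap2 was 157 CPM (interval 152 to 163) in Btnl2-KO and 183 CPM (178 to 189) in WT duodenum. It was 156 and 174 CPM in jejunum and 161 and 177 CPM in ileum. Psmb8 was 674 and 711, 635 and 666, and 633 and 681 CPM, and Psmb9 219 and 239, 202 and 219, and 191 and 214 CPM. In all, 7 of the 10 members (H2-K1, H2-D1, Tap1, Tap2, Tapbp, Psmb8 and Psmb9) were lower in the Btnl2-KO library of all 3 segments, or 6 without Tapbp when no cell filter was used or when only cells without an epithelial UMI were kept. How many of all genes were lower in all 3 segments was not counted, so the 7 are not set against a background. The bulk γδ IELs, with replicates, did not repeat this in every segment. There 8, 5 and 2 of the 10 members were lower in Btnl2-KO duodenum, jejunum and ileum, with 0 called. With 1 library a group, genotype and library cannot be told apart here.

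H2-T3 was almost absent from single γδ IELs. Its levels were 1.43 to 2.69 CPM in the Btnl2-KO libraries and 1.73 to 2.34 CPM in the WT libraries, from 33 to 55 UMIs a library in 0.724% to 1.41% of cells. Counting intervals of the genotypes overlapped within each segment, while those of duodenal Btnl2-KO (from 2.03 CPM upward) and ileal Btnl2-KO (up to 1.95 CPM) did not. In cells with an epithelial UMI it was higher than in cells without one in 6 of 6 libraries (mean log2 difference 0.26, exact two-sided sign-flip permutation p = 0.0312, the smallest that 6 libraries allow). Across all genes with the library as a term, edgeR gave 0.38 with an adjusted p of 0.242. A few members went the other way in that comparison, Tap1 at -0.11 (edgeR adjusted p = 0.0156) and Psmb8 at -0.08 (edgeR adjusted p = 4.27e-05), 2 of 10 lower where 5.44% of 11004 genes were.

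Within single γδ IELs the class I machinery went with interferon-induced genes. Cells with at least 3 UMIs over 8 interferon-induced genes, 481 to 650 a library, were compared with the 1342 to 1729 cells that had 0, within each library. By edgeR on summed counts with the library as a term, 6 of 10 members were higher in the former, where 7.53% of 10326 genes were. The 6 were Tap1, Tap2, Tapbp, Psmb8, Psmb9 and B2m. The former cells were deeper, with library medians of 5456 to 6279 UMIs against 4515 to 5148.

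Tap1 had the largest difference among them. It was 117, 106 and 102 CPM in these cells of duodenal, jejunal and ileal Btnl2-KO libraries against 86.9, 81.9 and 76.8 CPM in the others, and 113, 118 and 99.9 against 92.3, 88.6 and 85.4 CPM in the WT libraries. It was higher in 6 of 6 libraries, with a mean log2 difference of 0.35 (0.22 to 0.43, exact sign-flip permutation p = 0.0312) and 0.38 ± 0.0387 by edgeR (adjusted p = 2.61e-06).

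The immunoproteasome subunits followed. Psmb8 was 759, 694 and 710 against 640, 603 and 592 CPM in Btnl2-KO and 794, 732 and 774 against 669, 631 and 647 CPM in WT, also higher in 6 of 6 libraries (0.26 ± 0.018 by edgeR, adjusted p = 2.4e-08). Psmb9 differed by 0.25 ± 0.0267 (edgeR adjusted p = 4.95e-06), Tap2 by 0.18 ± 0.0305 (edgeR adjusted p = 0.000655) and Tapbp by 0.15 ± 0.0262 (edgeR adjusted p = 0.000974). B2m rose by 0.07 ± 0.0205 (edgeR adjusted p = 0.0332) and was higher in 5 of 6 libraries.

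The classical heavy chains did not pass the test. H2-K1 and H2-D1 each differed by 0.02 on the log2 scale (edgeR adjusted p = 0.476 and 0.513), and were higher in 3 of 6 libraries each. Nlrc5 was at 0.14 (edgeR adjusted p = 0.186). H2-T3, at few UMIs, was lower in 6 of 6 libraries, at -0.75 by edgeR with an adjusted p of 0.0998. After thinning each cell to 1500 UMIs and comparing at least 2 with 0 interferon-induced UMIs, the mean log2 differences were 0.56 for Tap1, 0.33 for Psmb8, 0.28 for Tap2 and 0.24 for Tapbp, each higher in 6 of 6 libraries, and 0.25 for Psmb9, higher in 5 of 6. H2-D1 was then at 0.10 and higher in 6 of 6, and H2-K1 at 0.09 and B2m at 0.10 were each higher in 5 of 6. H2-T3 was at -0.64 and Nlrc5 at 0.07, each higher in 2 of 6.

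**Figure D5:**
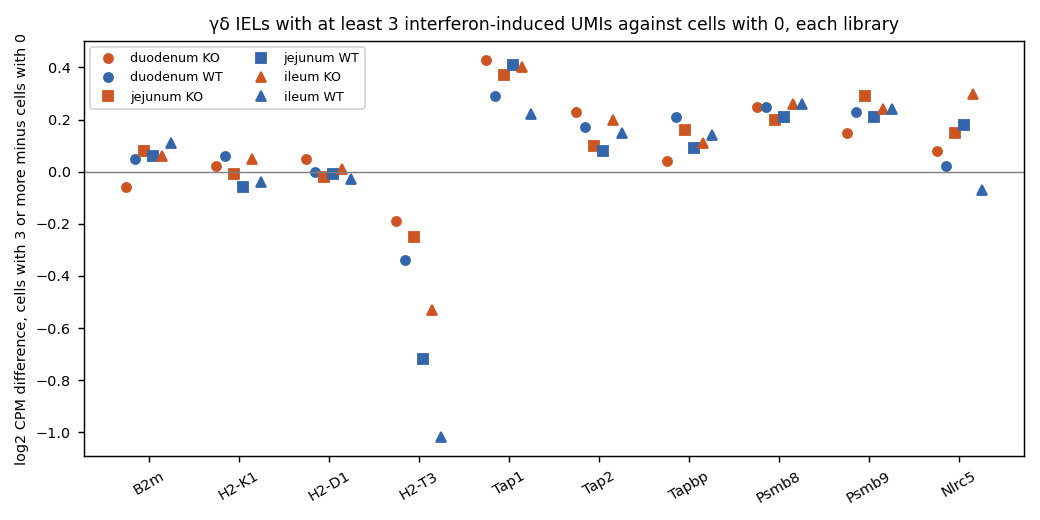
Difference in log2 CPM between single γδ IELs with at least 3 interferon-induced UMIs and those with 0, 1 point per library (6 libraries) for each of the 10 genes. Tap1, Tap2, Tapbp, Psmb8 and Psmb9 lie above 0 in all 6 libraries, and H2-K1 and H2-D1 lie on both sides of 0.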

How the data were processed

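Bulk RNA-seq of γδ IELs, IECs and whole tissue and droplet single-cell RNA-seq of γδ IELs were used. Per the study's methods the authors mapped reads to a customized mouse genome in ArrayStudio and estimated sense-strand exon reads per gene with RSEM. The deposited bulk values are expected counts, which need not be whole, and 4.91%, 14.8% and 17.0% of the γδ IEL, IEC and tissue values were not. The build given is GRCm38. The labels and the methods name different library kits, and which was used for which libraries is not given in the sources used here. The authors made the single-cell files, UMI counts per gene and cell, with Cell Ranger. The deposited files' 100 identifiers without a symbol, holding 0.253% to 9.24% of counts, were kept under their identifier numbers. Left out was 1 column that matched no sample.

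Expected counts were rounded and tested with edgeR 4.0.16 in R 4.3.3 (TMM scaling, a floor of 10 counts, reached in a number of libraries equal to the smallest group compared, and the quasi-likelihood test). Adjusted p-values are Benjamini-Hochberg over all genes tested, and a call needs an adjusted p below 0.05 and more than 1.5-fold, as in the study's methods. The study's own tool, DESeq2 1.42.0, was an alternative, with limma 3.58.1 (voom with sample weights), RLE scaling, no count filter, no minimum fold, all libraries in one fit, marker lists as covariates between genotypes and single libraries left out. Each library was left out in turn in the γδ IEL and IEC comparisons and between genotypes within a tissue, but not in the other tissue comparisons. No 2 replicates agreed within sampling noise (lowest chi-square per degree of freedom 5.28 over 122 pairs). The study's methods define samples as biological replicates. Tests were tried on simulated data first.

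Cells were kept from 500 genes upward and up to 10% mitochondrial UMIs, and no doublet caller was run. Levels are sums over cells as CPM. Members within libraries were compared with an exact sign-flip permutation over 6 libraries and, chosen after seeing the data, with edgeR across all genes. Transcript lengths came from GENCODE and promoters from RefSeq. The 10 genes and all lists were chosen with earlier results of these data known. The members are given in every comparison, with Btnl2, up to 4 genes of a list by smallest adjusted p and the 5 genes closest to H2-T3 and B2m. Scripts ran in Python 3.11.15 with numpy 2.4.6, pandas 2.3.3 and scipy 1.17.1.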

Additional observations from a re-analysis of the deposited data

Results flagged for a closer look

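Over 80 groups of member values with 4 to 10 libraries, 7 had a library far from the rest by Dixon's test, and chance gives about 1 in 20. Colon Btnl2-KO 2 had the highest H2-D1 (609 CPM, next 459), Tapbp (243 CPM, next 201) and Psmb8 (32.8 CPM, next 21.8) of its group. Small intestine Btnl2-KO 3 had the lowest B2m (808 CPM, next 1199), Psmb8 (54.9 CPM, next 122) and Psmb9 (25.7 CPM, next 59.4). Small intestine WT 5, one of the libraries with Gata4, had the highest B2m (1497 CPM, next 1095).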

How the results depend on the processing

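Of 2558 log2 differences of members recomputed under the alternatives, 25 gained a call, 4 lost one and 128 changed sign without a call in either fit, while 0 changed sign with a call. Calls of members between colon and small intestine numbered at least 9 under every alternative run there, which did not include leaving out single libraries in turn. In ileal γδ IELs by genotype, limma-voom called 1 member (Tapbp) where edgeR called 0. Between jejunal and duodenal WT γδ IELs, where the main fit called 1, no minimum fold gave 3 (Tapbp, Psmb8, Psmb9), DESeq2 gave 2 (H2-T3, Psmb9), no count filter gave 2 (Tapbp, Psmb9), limma-voom gave 3 (H2-T3, Tapbp, Psmb9) and leaving out 1 library gave 1 to 3. Between ileal and jejunal WT γδ IELs, no minimum fold gave 1 (Tapbp), limma-voom gave 4 (H2-T3, Tap1, Tap2, Tapbp) and leaving out 1 library gave 0 to 3, the 3 being without ileum WT 1 (Tap1, Tap2, Tapbp) and 1 (Tapbp) without ileum WT 4, jejunum WT 2 or jejunum WT 4. Between ileal and duodenal WT IECs the 1 call (Nlrc5) was 0 with all libraries in one fit and 0 to 1 when 1 library was left out. The causes were not tested. No paired analysis was possible because replicate numbers were given in accession order and name libraries only. Leaving a group of 2 with 1 library assumes that the lone library varies like the others. Small groups of IECs, divided reads among class I genes and 1 single-cell library per genotype limit what these data can show.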
